A study of Mus musculus with 40 samples.

Results

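The gene segments of the immunoglobulin heavy chain locus on mouse chromosome 12 were followed through 4 progenitor populations on the path to B cells, with and without the gene Mbd3. The members were every gene of the deposited count table whose Ensembl identifier maps, in the GENCODE M21 annotation of GRCm38, to a symbol beginning with Ighv, Ighd, Ighj, Ighm, Ighg, Ighe or Igha and to an immunoglobulin V, D, J or constant gene type on that chromosome. There were 142 of them among 49585 genes: 113 variable (V) segments, 17 diversity (D) segments, 4 joining (J) segments and 8 constant genes. At least 1 read was counted for 86 of the 142 in any library (74 V, 1 D, 4 J and 7 constant genes). The other 56, namely 39 V segments, 16 D segments and Ighg3, had none. V pseudogenes and 2 D genes that carry other symbols are not members.

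A heavy chain gene is assembled in developing B cells by joining a D segment to a J segment and then a V segment to the joined DJ, a reaction started by the RAG1 and RAG2 recombinase. Before joining, the unrearranged segments can already be transcribed from their own promoters, and the constant gene Ighm makes such germline transcripts from the intronic enhancer region upstream of it. The heavy chain of the first B cell receptor uses Ighm, Ighd is reached by splicing of the same long transcript, and the Ighg, Ighe and Igha genes further along are normally used after class switching in activated B cells. A count per gene, as used here, does not separate germline from rearranged transcripts.

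The mice were of a mixed C57BL6/129Ola background and 46 to 51 days old. Control mice had both Mbd3 alleles flanked by loxP sites (Mbd3_Flox/Flox), and the Mbd3del mice had both alleles deleted (Mbd3_Del/Del). No source used here names the Cre driver. From femur and tibia marrow of each of 5 control and 5 Mbd3del mice, 4 populations were sorted, which gave 40 libraries in 8 groups of 5. Hematopoietic stem cells (HSC) were CD45+ CD150+ CD48- EPCR+. Lymphoid-primed multipotent progenitors (LMPP) were lineage- Sca-1+ c-Kit+ Flt3hi cells without IL-7Ra or B220. All-lymphoid progenitors (ALP) carried IL-7Ra but no Ly6D, and B cell-biased progenitors (BLP) carried both, again without B220. Libraries were made by Smart-seq2, a method for small pools of cells. The sample labels give 150 cells per pool for HSC and 100 for the others, while the series description gives these numbers the other way round.

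Libraries held 2974305 to 9082610 reads counted in genes, and levels are each gene's count scaled to a common library total (CPM). Mbd3 itself was at 8.18 to 165 CPM in the 20 control libraries and at 0 to 3.24 CPM in the 20 Mbd3del libraries, including the Mbd3del LMPP libraries whose titles call them floxed. The sort markers followed the gates: Slamf1 (CD150) was at 65.3 to 160.0 CPM in HSC and at most 9.16 elsewhere, Il7r at 245 to 1555 CPM in ALP and BLP and at most 6.60 in HSC and LMPP, and Ly6d at 3646 to 13718 CPM in BLP and at most 493 elsewhere. Labelled sex went against Xist and Y-linked transcripts in control mice mouse10372 and mouse10381, so results are also given without these animals where they matter. In such bulk libraries, fewer cells of a type and less RNA per cell cannot be told apart. Smart-seq2 does not mark strand, so antisense transcripts across the locus cannot be separated from sense ones. Reads of near-identical V segments may have been split or dropped, and the 129Ola alleles may match the reference less well. No V member lacked 50-base windows found in no other gene, and 98 of 113 had at least 50% such windows, but the single V values stay uncertain to that degree. The median share of own windows was 76.7% for V members with a count and 84.6% for those without. By distance from Ighm it was 81.6% for the nearest 38 V members, 80.0% for the middle 38 and 64.6% for the farthest 37. Reads of the farthest V segments are thus the least certain to be their own.

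The segments that the results below turn on are shown here as they stand unjoined in the reference, 5′ to 3′, from the GENCODE M21 transcripts on the minus strand of GRCm38. The 4 J segments lie between Ighm and the D segments and all had reads. Capitals mark the codons for Trp-Gly-X-Gly, the motif shared by J segments, and the spans are chr12:113429781-113429833 (Ighj1), chr12:113429468-113429515 (Ighj2), chr12:113429085-113429132 (Ighj3) and chr12:113428514-113428567 (Ighj4). Of the 100 annotated exon bases of Ighj2, the last 48 are shown.
Ighj1: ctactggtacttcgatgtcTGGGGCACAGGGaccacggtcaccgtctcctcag
Ighj2: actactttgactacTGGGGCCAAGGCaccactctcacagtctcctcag
Ighj3: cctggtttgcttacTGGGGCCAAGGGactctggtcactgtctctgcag
Ighj4: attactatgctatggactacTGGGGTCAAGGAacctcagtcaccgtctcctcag

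The D segments are the shortest members, with exons of 10 to 29 bases. Ighd1-1 (chr12:113482170-113482192) was the 1 D member with reads, and Ighd4-1 (chr12:113430528-113430538), shown for its length, had none. They carry no capitals.
Ighd1-1: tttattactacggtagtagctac
Ighd4-1: ctaactgggac

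For V segments, the last 60 bases are shown, where a joined V meets its D segment. Capitals mark the TGT codon of the conserved cysteine. Ighv1-82 (chr12:115952538-115952597) and Ighv1-77 (chr12:115861867-115861926) lie far from Ighm and had 822 and 1118 reads in LMPP. Ighv1-23 (chr12:114764450-114764509) was the most counted V over all libraries, with 970 reads in LMPP. Ighv10-3 (chr12:114523441-114523500) had reads in every BLP library and few before, and Ighv9-3 (chr12:114140692-114140751) and Ighv5-2 (chr12:113578504-113578563) stand for the V segments near the D end.
Ighv1-82: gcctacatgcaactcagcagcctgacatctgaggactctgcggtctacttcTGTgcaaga
Ighv1-77: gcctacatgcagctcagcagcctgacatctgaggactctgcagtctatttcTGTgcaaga
Ighv1-23: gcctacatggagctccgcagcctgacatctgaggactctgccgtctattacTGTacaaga
Ighv10-3: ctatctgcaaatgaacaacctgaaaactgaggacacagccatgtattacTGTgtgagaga
Ighv9-3: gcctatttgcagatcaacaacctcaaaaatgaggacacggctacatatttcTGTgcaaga
Ighv5-2: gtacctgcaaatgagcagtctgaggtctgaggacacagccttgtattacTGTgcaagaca

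Aligned at the cysteine codon, Ighv1-82 and Ighv1-77 matched at 51 of 54 bases (94.4%), and Ighv1-77 and Ighv1-23 at 50 of 54 (92.6%). Ighv1-82 and Ighv1-23 matched at 48 of 54 (88.9%). Across families the matches ran from 33 of 52 (63.5%) for Ighv9-3 with Ighv5-2 to 43 of 52 (82.7%) for Ighv10-3 with Ighv5-2.

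Transcription of the locus was nearly silent in HSC, began in LMPP with Ighm and a small set of mostly distant V segments, widened in ALP, and reached its widest set of segments in BLP. In HSC, 2 members in control and 4 in Mbd3del mice had a read in at least 3 of 5 libraries. The numbers were 17 and 18 in LMPP, 26 and 28 in ALP, and 43 and 35 in BLP, control first. When every library was thinned to 2974305 counts, the depth of the smallest, the same counts were 2 and 3, 15 and 17, 21 and 23, and 39 and 33. Single libraries held reads for 2 to 9 members in HSC, 15 to 27 in LMPP, 21 to 34 in ALP and 33 to 52 in BLP.

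Ighm (ENSMUSG00000076617.9, chr12:113418558-113422730), the μ constant gene, was the one member counted in all 40 libraries, with 456394 reads. In HSC it was at 5.98, 9.30, 9.64, 12.8 and 15.5 CPM in control mice and at 10.4, 13.5, 13.6, 15 and 22.9 CPM in Mbd3del mice. In LMPP it was at 429, 1130.0, 1139, 1168 and 1593 CPM in control mice and at 1028, 1145, 1437, 1562 and 1658 CPM in Mbd3del mice. Every LMPP library lay far above every HSC library of both genotypes.

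ALP libraries had Ighm at 1533, 2141, 2566, 3204 and 3209.8 CPM in control mice and at 1700.2, 1916, 2318, 2499 and 3285 CPM in Mbd3del mice. BLP libraries had it at 1935, 2575, 3139, 3883 and 4316 CPM in control mice and at 2397, 2677, 2960.4, 3030.2 and 4494 CPM in Mbd3del mice. ALP and BLP overlapped in both genotypes. The group means ± SD (n = 5) in control mice were 10.6 ± 3.64 in HSC, 1092 ± 418 in LMPP, 2531 ± 718 in ALP and 3169 ± 962 CPM in BLP. Those of Mbd3del mice were 15.1 ± 4.65, 1366 ± 270.0, 2344 ± 614 and 3112 ± 812 CPM.

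From HSC to LMPP, Ighm rose by a log2 fold change of 6.74 (SE 0.382, adjusted p = 3.30e-07) in control mice and 6.54 (SE 0.308, adjusted p = 1.32e-08) in Mbd3del mice by edgeR's quasi-likelihood test, adjusted over all genes tested. On pooled counts this was 112-fold (95% interval 99.5 to 127, counting error only) and 96.4-fold (87.0 to 107). It also rose from LMPP to ALP in Mbd3del mice by 0.84 (SE 0.184, adjusted p = 0.0262), where the 2 groups did not overlap. That call was lost with the mouse as a block (adjusted p = 0.0790), without scaling of library totals (0.0699) and on leaving out any of mice mouse10360 (0.111), mouse10361 (0.135), mouse10365 (0.0616) or mouse10376 (0.0678). In control mice the same step had a log2 fold change of 1.18 (SE 0.298, adjusted p = 0.104), and 0.0448 without mouse10372, which had the lowest LMPP value. Neither genotype passed from ALP to BLP, with 0.40 (adjusted p = 0.998) in control and 0.48 (adjusted p = 0.522) in Mbd3del mice.

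Ighd (ENSMUSG00000104213.5, chr12:113406604-113416324), the δ constant gene, followed at a lower level, with 9151 reads in 36 libraries. HSC held 3 reads of it in control and 6 in Mbd3del mice. LMPP libraries had 3.70, 9.72, 11.9, 13.6 and 29.7 CPM in control mice and 12.8, 15.7, 29.7, 33.3 and 45.7 CPM in Mbd3del mice. ALP libraries had 49.0, 55.9, 57.7, 60.8 and 64.7 CPM in control mice, all above the control LMPP libraries, and 43.0, 55.3, 60.4, 64.4 and 78.5 CPM in Mbd3del mice, where the highest LMPP library reached into the ALP range.

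In BLP, Ighd was at 31.0, 62.7, 70.1, 71.8 and 79.7 CPM in control and at 25.2, 54.4, 54.6, 61.5 and 86.5 CPM in Mbd3del mice, overlapping ALP. From HSC to LMPP it rose by a log2 fold change of 6.80 (SE 1.21, edgeR adjusted p = 0.00362) in control and 6.69 (SE 0.849, adjusted p = 0.000168) in Mbd3del mice. For the LMPP to ALP step its log2 fold changes were 2.07 (adjusted p = 0.0694) and 1.23 (adjusted p = 0.158). Per kb of exon, a scale on which genes can be compared, mean levels in BLP were 1681 CPM per kb for Ighm and 33.2 for Ighd in control mice, and 1650.0 and 29.7 in Mbd3del mice.

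**Figure D1:**
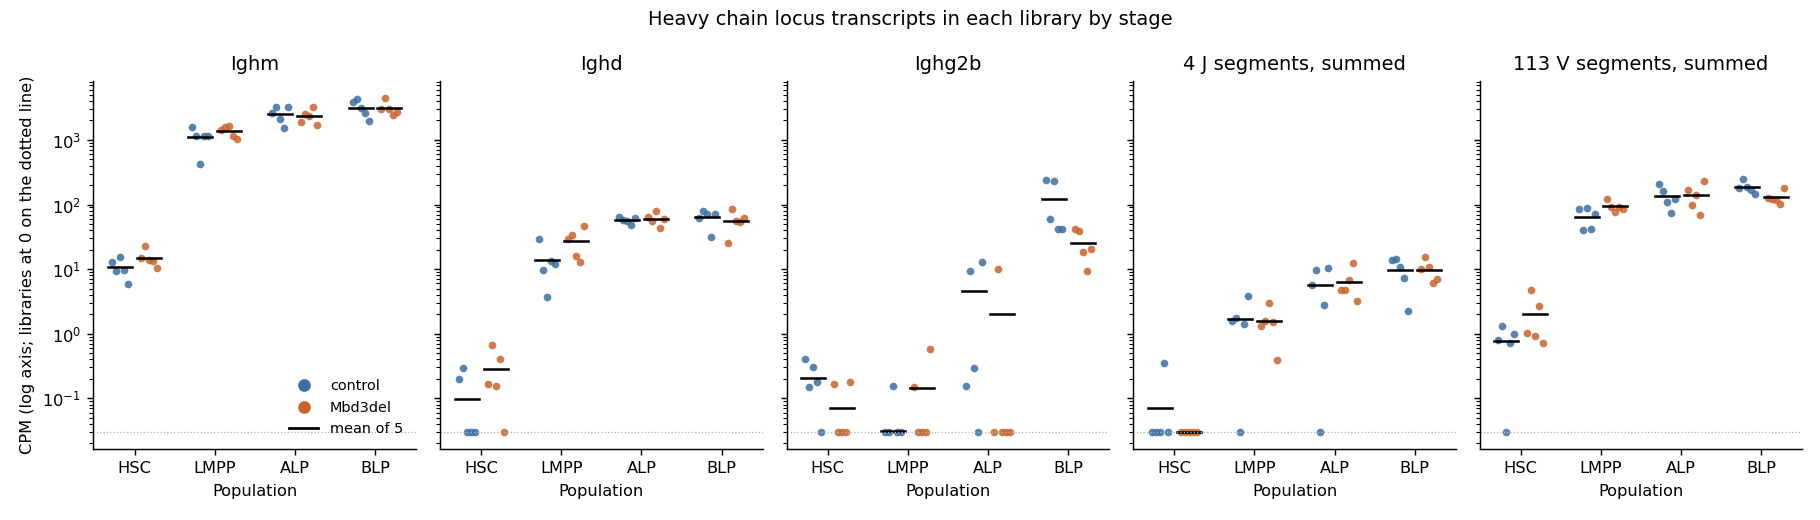
Levels of Ighm, Ighd, Ighg2b, the 4 J segments summed and the 113 V segments summed in each of 40 libraries, in CPM on a log axis, by population from HSC to BLP. Each point is 1 library (control blue, Mbd3del orange), points on the dotted line are at 0, and the black lines are means of 5. Ighm steps up between HSC and LMPP in every library, whereas Ighg2b stays at or near 0 in HSC and LMPP, lies near 10 CPM in 3 of 10 ALP libraries and is seen in all BLP libraries.

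Of the constant genes past Ighd, 1 was abundant. Ighg2b (ENSMUSG00000076613.3, chr12:113302965-113307933), the γ2b constant gene, had 5031 reads, and 4051 of them came from control BLP. HSC libraries were at 0 to 0.399 CPM, and LMPP held 1 read in control and 4 in Mbd3del mice. In ALP it was at 0, 0.153, 0.297, 9.43 and 12.7 CPM in control mice, and in Mbd3del mice mouse10361 alone had it, at 10.02 CPM. ALP thus held libraries near 10 and libraries at or near 0 in the same group.

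All 10 BLP libraries had Ighg2b. It was at 41.2, 41.3, 59.7, 228 and 236 CPM in control mice (121 ± 101, SD, n = 5) and at 9.27, 18.7, 20.2, 39.2 and 41.1 CPM in Mbd3del mice (25.7 ± 13.9). Mice mouse10357 and mouse10372 stood far above the other control mice. From ALP to BLP the log2 fold change was 4.80 (SE 1.11, edgeR adjusted p = 0.179) in control and 3.73 (SE 1.42, adjusted p = 0.483) in Mbd3del mice, so neither step passed. Without mouse10361, whose ALP library had the 1 value above 0, the Mbd3del step was 10.28 (adjusted p = 0.0136), a fitted value against ALP libraries at 0 that gives no bound. The mean level per kb in BLP was 45.3 ± 37.9 CPM per kb in control mice, a range that includes the level of Ighd, and 9.59 ± 5.17 in Mbd3del mice.

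The other constant genes appeared in scattered libraries. Igha, the α constant gene used in mucosal antibodies, had 218 reads in 8 libraries, led by the Mbd3del BLP libraries of mice mouse10360 (10.8 CPM) and mouse10384 (8.94 CPM). Ighe, the ε gene of allergic antibodies, had 221 reads in 9 libraries, led by the control ALP library of mouse10372 (15.8 CPM) and the control LMPP library of mouse10380 (7.83 CPM). Ighg2c had 91 reads in 5 libraries, led by the control BLP library of mouse10380 (5.24 CPM). Ighg1 had 1 read, in a control LMPP library, and Ighg3 none, which allows up to 0.0117 CPM (3 reads of all counts).

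At least 10 reads of Igha, Ighe or Ighg2c stood in 14 libraries, and 2 of these 14 had as many of a pair of them. Among the 14, 6 had a read of Jchain, the joining chain of secreted IgA and IgM, and 6 had a read of the light chain gene Igkc. Among the other 26 libraries, 11 had a Jchain read. Ms4a1 (CD20), a defining marker of mature B cells, was at 0 in all 40 libraries. Of the 10 mature B cell genes listed, 8 and 9 had reads in HSC (control first), 6 and 4 in LMPP, 6 and 7 in ALP and 8 in BLP of each genotype, with sums of 139 to 283 CPM in HSC, 253 to 453 CPM in LMPP and ALP and 402 to 775 CPM in BLP. The 9 plasma cell genes listed summed to 336 to 797 CPM in HSC, 108 to 486 CPM in LMPP and ALP and 502 to 838 CPM in BLP, and 8 or 9 of them had reads in each group except Mbd3del LMPP (7, Jchain and Prdm1 at 0). Their part in the Igha, Ighe and Ighg2c reads was not tested.

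J segments had reads in 9 of 10 LMPP libraries. Reads over the 4 J exons, which are 48 to 100 bases long, were few: 618 for Ighj1, 384 for Ighj4, 118 for Ighj2 and 72 for Ighj3. HSC held 2 J reads, both in control mouse10380. The 4 J segments together were at 0 to 3.80 CPM in control LMPP and 0.387 to 3.04 CPM in Mbd3del LMPP. In ALP they were at 0, 2.75, 5.66, 9.56 and 10.5 CPM in control and at 3.26, 4.73, 4.74, 6.68 and 12.2 CPM in Mbd3del mice.

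In BLP the J sum was 2.23, 7.16, 10.8, 13.8 and 14.2 CPM in control and 6.10, 7.09, 10.2, 10.6 and 15.2 CPM in Mbd3del mice. All ALP and BLP libraries except the ALP library of control mouse10372 held J reads, and that mouse had none in LMPP either. LMPP and ALP overlapped in control mice, while every Mbd3del ALP library lay above every Mbd3del LMPP library, and ALP and BLP overlapped in both genotypes.

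The J segments were not counted equally. Ighj1, the one nearest the D segments, was at 4.25 ± 3.46 CPM in control ALP and 4.31 ± 2.84 in Mbd3del ALP, and at 2.90 ± 1.54 and 4.40 ± 2.43 CPM in BLP. Ighj4, the one nearest Ighm, was at 1.10 ± 0.714 and 1.53 ± 0.545 CPM in ALP and at 4.02 ± 2.0 and 3.31 ± 0.997 CPM in BLP. Their exons are 53 and 54 bases long, so these levels can be set side by side: Ighj1 was the higher on average in ALP, and the 2 lay within their spread in BLP.

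Ighj2 had 1 read in LMPP, 8 and 7 reads in ALP, and 1.98 ± 1.24 and 1.08 ± 0.588 CPM in BLP, control first. Ighj3 had none in LMPP, 6 and 10 reads in ALP, and 0.741 ± 0.627 and 1.04 ± 0.772 CPM in BLP. From LMPP to ALP, Ighj1 had log2 fold changes of 2.06 (edgeR adjusted p = 0.763) in control and 2.16 (adjusted p = 0.375) in Mbd3del mice, and from ALP to BLP Ighj4 had 1.87 (adjusted p = 0.998) and 1.17 (adjusted p = 0.848). None of these passed. The 1 D segment with reads, Ighd1-1, had 2, in the BLP libraries of control mice mouse10357 and mouse10358. At exons this short, a missing read says little about transcription.

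V segments summed to 0.763 ± 0.487 CPM in control HSC and 2.004 ± 1.7 CPM in Mbd3del HSC (24 and 43 reads, 19 of the latter from Ighv6-3 in mice mouse10361 and mouse10376). In LMPP the sum was 40.6, 41.4, 70.5, 85.8 and 86.7 CPM in control and 77.5, 86.1, 90.3, 91.3 and 121 CPM in Mbd3del mice. In ALP it was 74.4, 109.7, 121, 161 and 207 CPM in control and 69.9, 98.5, 142, 168 and 233 CPM in Mbd3del mice. In every LMPP library the V sum exceeded that of every HSC library, and LMPP and ALP overlapped.

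In BLP the V sum was 147, 166, 179, 189.7 and 247 CPM in control and 100.2, 118, 120.1, 126 and 178 CPM in Mbd3del mice, with 1 Mbd3del library, of mouse10384, inside the control range. For each 100 reads of constant genes there were 5.77 and 6.69 V reads in LMPP, 5.06 and 5.78 in ALP, and 5.47 and 4.24 in BLP, control first. Single libraries ranged from 3.54 to 20.04 and 4.62 to 8.22 in LMPP, from 3.68 to 7.88 and 2.10 to 13.2 in ALP, and from 4.28 to 7.19 and 2.60 to 6.43 in BLP, and no test was made on these ratios.

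Few V segments carried most reads. The 20 with the highest mean level held 92.4% of all 25251 V reads, and 16 of these 20 belong to Ighv1, the largest V family with 53 members here. Of the 20, 14 were among the 37 V segments most distant from Ighm (distal, 1632.493 to 2577.298 kb), 6 among the middle 38 (865.422 to 1601.296 kb) and 0 among the nearest 38 (proximal, 155.774 to 839.922 kb).

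**Figure D2:**
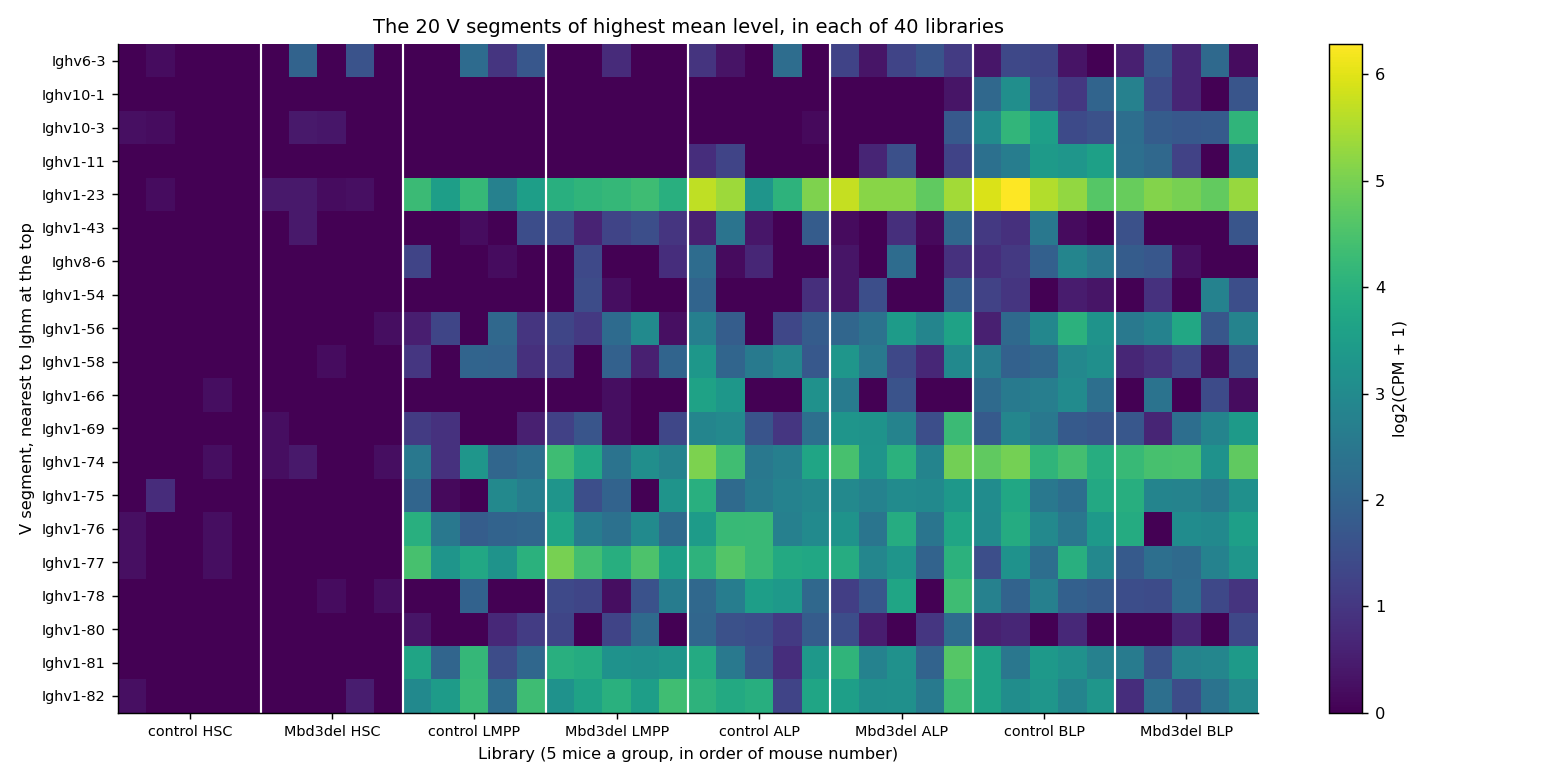
Levels of the 20 V members with the highest mean, as log2(CPM + 1), in all 40 libraries, ordered by group and with the segment nearest to Ighm at the top. HSC columns are almost empty, the far Ighv1 members at the bottom fill from LMPP on, and Ighv10-1, Ighv10-3 and Ighv1-11 fill in BLP.

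In LMPP, the first population with regular V transcripts, Ighv1-77 was the most counted V in 5 of 10 libraries, Ighv1-82 in 3 and Ighv1-23 in 2. Ighv1-77 was at 8.31, 8.72, 12.7, 15.1 and 20.9 CPM in control LMPP and at 10.8, 14.3, 20, 22.0 and 31.0 CPM in Mbd3del LMPP. Ighv1-82 was at 3.68, 6.88, 9.96, 17.9 and 19.2 CPM in control LMPP and at 8.24, 10.5, 11.3, 14.8 and 19.4 CPM in Mbd3del LMPP. Both were present in every LMPP library and at no more than 2 reads in any HSC library.

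Neither segment had its highest mean over the 10 libraries of a population in ALP or BLP. Per kb of exon, Ighv1-77 in Mbd3del mice averaged 48.4 ± 19.1 CPM per kb in LMPP and 23.4 ± 12.8 in ALP. In control mice Ighv1-77 was the higher in ALP on average, at 40.7 ± 10.7 against 32.4 ± 12.8 CPM per kb in LMPP. In ALP, Ighv1-77 averaged 16.5 ± 4.34 CPM in control and 9.51 ± 5.19 CPM in Mbd3del mice, and in BLP 7.06 ± 4.93 and 4.93 ± 2.57 CPM. Ighv1-82 averaged 11.3 ± 5.71 and 10.04 ± 5.31 CPM in ALP, then 8.56 ± 1.92 and 3.50 ± 2.36 CPM in BLP. None of these steps passed the test (smallest edgeR adjusted p = 0.671, Ighv1-77 from LMPP to ALP in Mbd3del mice).

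Their neighbours at the far end were also present from LMPP on. Ighv1-81 averaged 7.42 ± 6.72 CPM in control and 10.6 ± 3.25 CPM in Mbd3del LMPP and had no read in any HSC library, so that on pooled counts it was at least 65.8-fold and 94.1-fold higher in LMPP, against a floor of 3 reads over the HSC group. It averaged 6.03 ± 5.18 and 11.4 ± 8.47 CPM in ALP and 7.87 ± 2.69 and 5.83 ± 2.77 CPM in BLP. Its mean over the 10 libraries of both genotypes was highest in LMPP. Taken alone, control mice had their highest mean in BLP and Mbd3del mice in ALP, within the spread of LMPP. Ighv1-76 averaged 5.64 ± 5.08 and 6.35 ± 3.39 CPM in LMPP, and Ighv1-74 averaged 4.31 ± 2.96 and 9.97 ± 6.07 CPM. Ighv1-74 was higher on average in both later populations in each genotype, at 14.7 ± 11.2 and 16.1 ± 9.67 CPM in ALP and 21.4 ± 6.63 and 18.9 ± 6.67 CPM in BLP.

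Ighv1-23 (chr12:114764450-114764883, 1341.720 kb from Ighm) stood apart as the most counted V, with 6064 reads, and as the one middle member among those tested from HSC to LMPP, where it rose. LMPP libraries had it at 5.75, 10.5, 10.6, 17.4 and 18.5 CPM in control and at 14.5, 14.7, 16.4, 17.1 and 19.1 CPM in Mbd3del mice. ALP libraries had it at 8.62, 15.6, 32.6, 39.9 and 50.6 CPM in control and at 25.9, 34.8, 35.1, 41.6 and 52.0 CPM in Mbd3del mice, where the latter all lay above the Mbd3del LMPP libraries. BLP libraries had it at 23.9, 37.8, 46.4, 59.8 and 77.1 CPM in control and at 26.6, 27.1, 31.1, 33.8 and 38.9 CPM in Mbd3del mice.

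It was the leading V in 9 of 10 ALP libraries, the exception being Ighv1-76 in control mouse10372, and in all 10 BLP libraries. Its LMPP to ALP log2 fold change was 1.14 (edgeR adjusted p = 0.736) in control and 1.30 (adjusted p = 0.0926) in Mbd3del mice, and neither passed. Per kb of exon, the levels of Ighv1-23 and Ighv1-77 in control LMPP lay within their spread, at 35.7 ± 15.2 and 32.4 ± 12.8 CPM per kb (SD, n = 5), and stood at 140 ± 58.1 and 17.4 ± 12.2 CPM per kb in control BLP. The leading V of a library held 16.3% to 37.1% of its V reads from LMPP to BLP.

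From HSC to LMPP, 7 of 7 members tested in control mice and 8 of 8 in Mbd3del mice rose, against 2.82% and 2.99% of all genes tested that rose. A member near 0 in HSC entered the test only because it was high in LMPP and so had to differ, and these counts are no support beyond the values above. Beside Ighm and Ighd, the V segments that rose in both genotypes were Ighv1-23 (log2 fold change 7.95 in control and 6.26 in Mbd3del mice), Ighv1-76 (5.93 and 8.23), Ighv1-77 (7.20 and 9.85), Ighv1-81 (8.68 and 8.97) and Ighv1-82 (7.80 and 7.01). Their edgeR adjusted p values lay between 0.000350 and 0.0121. With so few HSC reads the fitted sizes depend on the prior count. Ighv1-74 rose in Mbd3del mice (6.15, adjusted p = 0.00285) and was not tested in control mice. With the mouse as a block, Ighv1-81 in control (adjusted p = 0.0933) and Ighv1-76 in Mbd3del mice (0.0517) no longer passed. Without control mice mouse10372 and mouse10381, Ighv1-76 (adjusted p = 0.0978), Ighv1-81 (0.0982) and Ighv1-82 (0.0807) did not pass in control mice.

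The set of V segments widened in steps. Counting a V segment as seen when at least 3 of the 10 libraries of a population held a read, 4 were seen in HSC, 13 more in LMPP, 14 more in ALP and 15 more in BLP, and 67 were never seen. Of the 13 new in LMPP, 12 were distal and 1 middle. Of the 14 new in ALP, 10 were distal and 4 middle. Of the 15 new in BLP, 6 were distal, 5 middle and 4 proximal. The 17 segments seen in HSC or LMPP held 97.9% of V reads in LMPP, 92.1% in ALP and 79.0% in BLP. Ighv10-3 is among them through HSC alone, with 0 reads in LMPP and 449 in BLP. Most segments new in LMPP and ALP thus were distal, with Ighv1-23, Ighv6-3, Ighv10-3 and Ighv1-43 as middle members already seen in HSC or LMPP.

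ALP added distal members such as Ighv1-66, which had no read in control LMPP and 1 in Mbd3del LMPP. It was at 0, 0, 7.99, 9.03 and 11.3 CPM in control ALP and at 0, 0, 0, 2.07 and 5.16 CPM in Mbd3del ALP. In BLP it was at 3.52 to 7.16 CPM in all 5 control libraries and at 0, 0, 0.154, 1.71 and 4.23 CPM in Mbd3del mice, overlapping at 1 library.

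Ighv1-11, a middle member 1189.513 kb from Ighm, had no read in HSC or LMPP, 16 and 26 reads in control and Mbd3del ALP, and 7.76 ± 2.95 and 3.03 ± 2.49 CPM in BLP. On the ALP to BLP step in control mice its groups did not overlap, and its log2 fold change was 4.18 (edgeR adjusted p = 0.684).

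Ighv10-3 (chr12:114523441-114523905, 1100.711 kb from Ighm) was the one member called from ALP to BLP, in control mice. In HSC it had 2 reads in control and 3 in Mbd3del mice. It had 0 reads in all 10 LMPP libraries, 1 read in control ALP, and 17 reads in Mbd3del ALP, all in mouse10384. BLP libraries had it at 1.66, 1.95, 7.19, 10.7 and 16.6 CPM in control and at 2.32, 2.44, 2.54, 3.79 and 16.2 CPM in Mbd3del mice. Every BLP library held it, and the highest Mbd3del value again came from mouse10384.

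In control mice Ighv10-3 rose from ALP to BLP by a log2 fold change of 7.43 (SE 1.41, edgeR adjusted p = 0.0391), 1 of 19 members tested, where 0.238% of all genes tested rose. With 1 read in control ALP it entered the test only because it was high in BLP and so had to differ, and the count is no support beyond the values above. The pooled ratio was 296 (95% interval 52.8 to 11746, counting error only). The call was lost with the mouse as a block (adjusted p = 0.336), without mice mouse10372 and mouse10381 (0.649) and on leaving out any 1 of the 5 control mice (0.0734 to 0.458). In Mbd3del mice the step was 3.45 (adjusted p = 0.612), and the difference between the steps was -3.99 (SE 1.98, adjusted p = 0.99996). The other member of its family, Ighv10-1, 1056.275 kb from Ighm, had 2 reads before BLP, both in ALP of mouse10384, and 3.37 ± 2.57 and 2.04 ± 2.25 CPM in BLP.

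**Figure D3:**
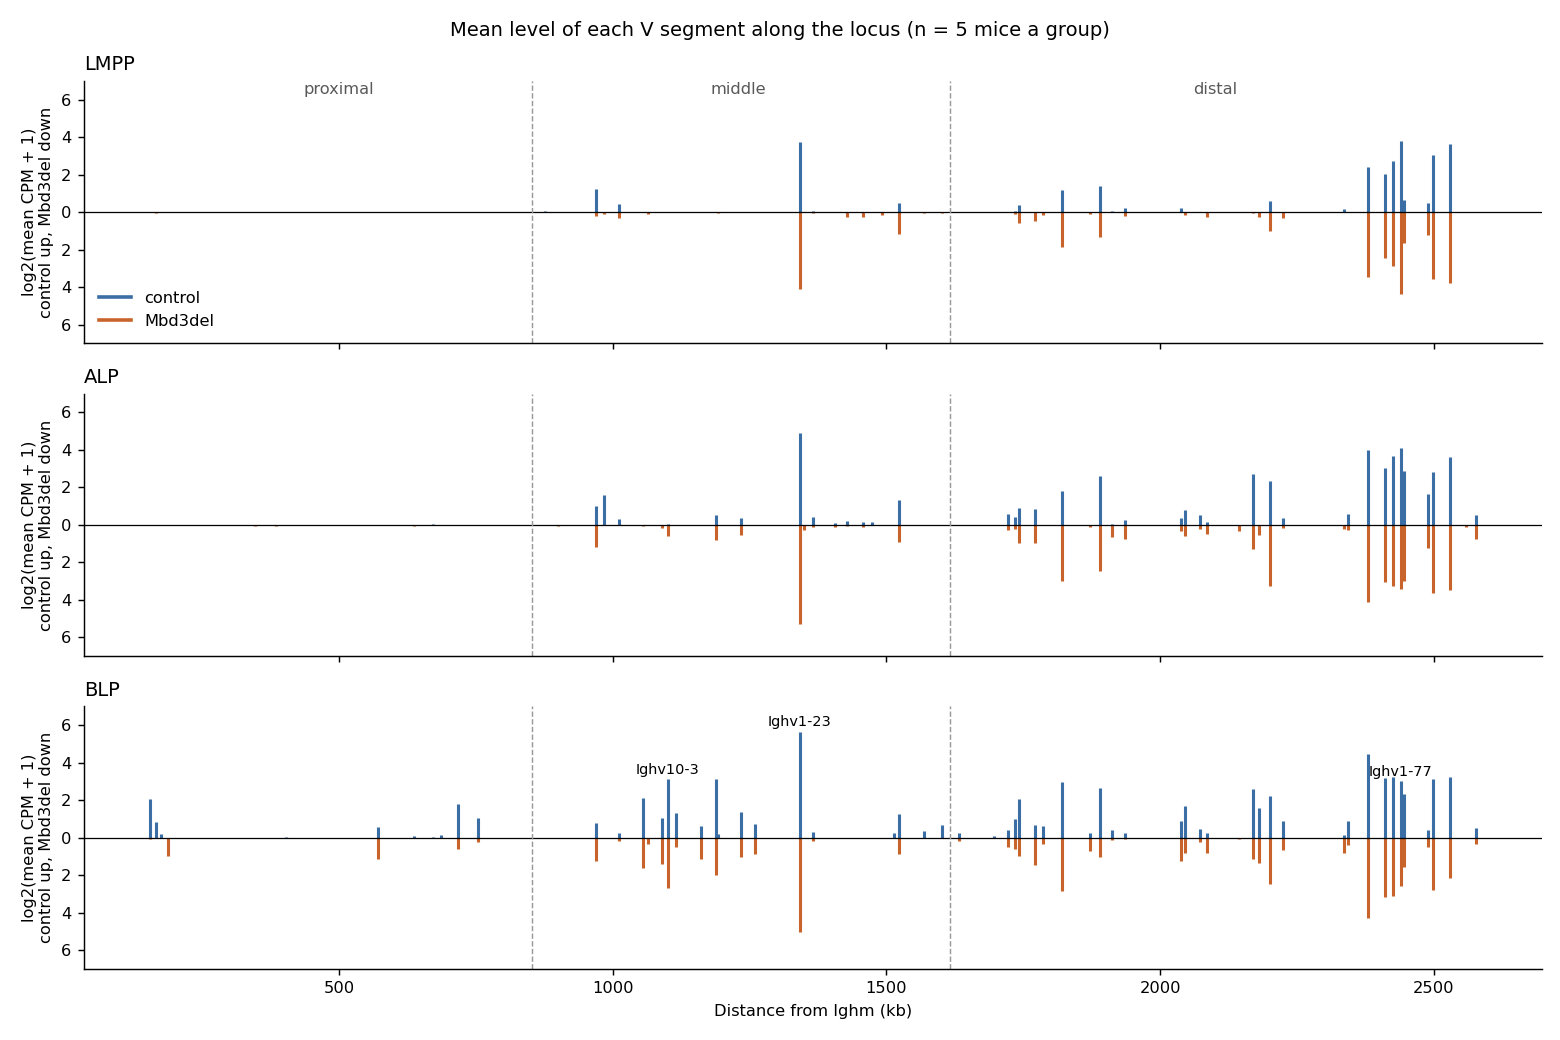
Mean level of each V member, as log2(CPM + 1), against its distance from Ighm in kb, with control mice drawn upward and Mbd3del mice downward, for LMPP, ALP and BLP. Dashed lines separate the proximal, middle and distal segments. Bars stand mostly at the far right in LMPP, with Ighv1-23 the tallest in the middle, and reach the proximal segments in BLP.

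Proximal V segments were the last to appear. Over the 38 of them, HSC held 1 and 3 reads, LMPP 0 and 1, ALP 2 and 3, and BLP 293 and 69, control first. Their sum in BLP was 2.94, 3.34, 6.73, 12.9 and 15.7 CPM in control and 0.244, 1.16, 2.12, 2.62 and 8.46 CPM in Mbd3del mice, which overlapped at 1 library of Mbd3del mouse10361. The members that carried these reads were picked out after their values were seen. Ighv5-2, a V segment near the D end known for frequent use in fetal B cells, was at 0, 0, 1.22, 3.94 and 10.8 CPM in control BLP and had 0.303 CPM in 1 Mbd3del library. Ighv9-3 was at 0.639, 0.835, 3.26, 3.52 and 3.82 CPM in control BLP and at 0, 0, 0, 0.617 and 1.97 CPM in Mbd3del BLP. Ighv14-4 had reads in 5 control and 2 Mbd3del libraries, and Ighv14-2 went the other way, at 0.495 ± 0.576 CPM in control and 1.22 ± 0.787 CPM in Mbd3del BLP.

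As a share of V reads, distal segments held 77.2% in control and 80.1% in Mbd3del LMPP, 72.4% and 69.9% in ALP, and 52.8% and 59.3% in BLP. Middle segments held 22.8% and 19.9%, 27.6% and 30.02%, and 42.5% and 38.9%. Proximal segments held 4.61% and 1.80% in BLP, and per BLP library 1.77% to 8.28% in control and 0.243% to 7.04% in Mbd3del mice. Ighv1-23 alone made up most of the middle share. In an alternative chosen after seeing the data that leaves it out, distal shares were 95.7% and 97.0% in LMPP, 94.3% and 95.5% in ALP, and 72.7% and 78.2% in BLP. With or without that segment, the distal share was lower in BLP than in LMPP in both genotypes, and the genotypes differed by less than BLP and ALP did. No test was made on these shares.

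The family make-up moved with position. Ighv1 segments, which lie in the middle and far part of the locus, held 96.8% and 98.6% of V reads in LMPP, 96.7% and 97.2% in ALP, and 84.6% and 88.4% in BLP. The other families with the most reads in BLP were Ighv10 (6.22% and 6.04%) and Ighv8 (4.03% and 2.60%). Most V segments reached their highest mean late: 42 of the 74 with reads in BLP, 24 in ALP, 7 in LMPP and 1 in HSC. Many were carried by single libraries, since 26 of the 74 had over 50% of their reads in 1 library, and 14 had reads in 20 or more libraries.

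**Figure D4:**
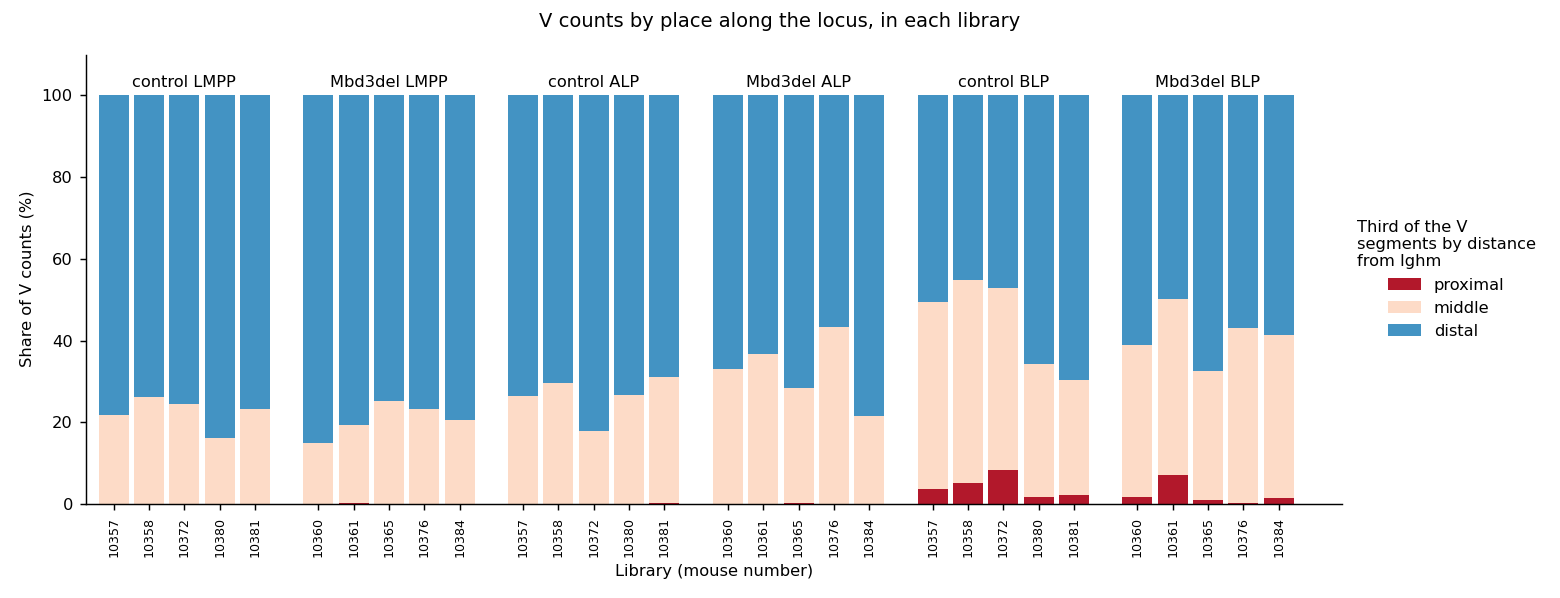
Share of V reads, in percent, from proximal, middle and distal segments in each LMPP, ALP and BLP library, as stacked bars that add to 100. The distal part is the largest in LMPP and ALP libraries, and a proximal part of up to 8.28% is seen in BLP.

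The genotypes were compared within each population. No member was called in HSC (0 of 1 tested, against 0.0176% of all genes), LMPP (0 of 9, 0.0183%), ALP (0 of 16, 0.0182%) or BLP (0 of 22, 0.0743%) by edgeR. At an unadjusted p under 0.05 there were 0, 0, 0 and 2 members. Over all genes tested, 467 of 11358, 567 of 10918, 253 of 11009 and 895 of 10772 were under it. The 2 of 22 in BLP thus lay near the share of all genes. DESeq2 called 1 member, in BLP, and its share of all genes is not given here. In BLP, 20 of the 22 tested members were lower in Mbd3del mice, with a median log2 fold change of -0.41, against -0.03 over all genes tested. The members share reads and libraries and are not independent of each other.

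Ighg2b and Ighv1-58 were the 2 members with an unadjusted p under 0.05 in BLP, and in both the genotypes did not overlap. The share of all genes without overlap in BLP is not given here, so this has no background to be read against. Ighg2b, with the values given above, had a log2 fold change of -2.24 (SE 0.567, edgeR adjusted p = 0.205), and DESeq2 gave an adjusted p of 0.00986. On pooled counts the Mbd3del level was 0.194 of control (95% interval 0.179 to 0.210, counting error only). Over 17 alternatives the log2 fold change lay between -2.48 and -1.84 and the adjusted p between 0.00986 and 0.519, past the threshold in that 1 case. Beside this, the 10 mature B cell genes listed, 8 of them with reads and Ms4a1 and Fcer2a at 0 in both genotypes, summed to 402 to 775 CPM in control and 436 to 566 CPM in Mbd3del BLP, and the 9 plasma cell genes, all with reads, to 502 to 751 and 515 to 838 CPM. Jchain was at 1.66 to 38.7 CPM in control and 0 to 5.60 CPM in Mbd3del BLP. Their part in the Ighg2b difference was not tested.

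Ighv1-58 (1889.436 kb from Ighm) was at 2.87, 3.26, 5.35, 6.64 and 7.79 CPM in control BLP and at 0.122, 0.606, 0.846, 1.54 and 2.005 CPM in Mbd3del BLP. Its log2 fold change was -2.33 (SE 0.929, edgeR adjusted p = 0.492), and between 0.0780 and 0.788 over the alternatives. In ALP it had averaged 5.18 ± 2.67 and 4.59 ± 3.50 CPM, so the genotypes overlapped there.

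Ighm in BLP differed by a log2 fold change of -0.00 (SE 0.205, edgeR adjusted p = 0.999) and Ighv1-23 by -0.60 (SE 0.333, adjusted p = 0.696). Ighd in LMPP, where Mbd3del libraries averaged 27.5 ± 13.4 and control libraries 13.7 ± 9.68 CPM, differed by 0.95 (SE 0.564, adjusted p = 0.937). All of these overlapped between genotypes. In simulated data built on the BLP libraries, the test recovered 5 of 50 genes changed 2-fold, 27 of 50 changed 4-fold and 45 of 50 changed 16-fold, so a 2-fold difference would mostly not be called at this size. The changed genes were drawn only from genes above a minimum mean count. With 130 calls there, against 8 of 10772 genes in the real comparison, the adjusted threshold was looser. Recovery in the real data may thus be lower.

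**Figure D5:**
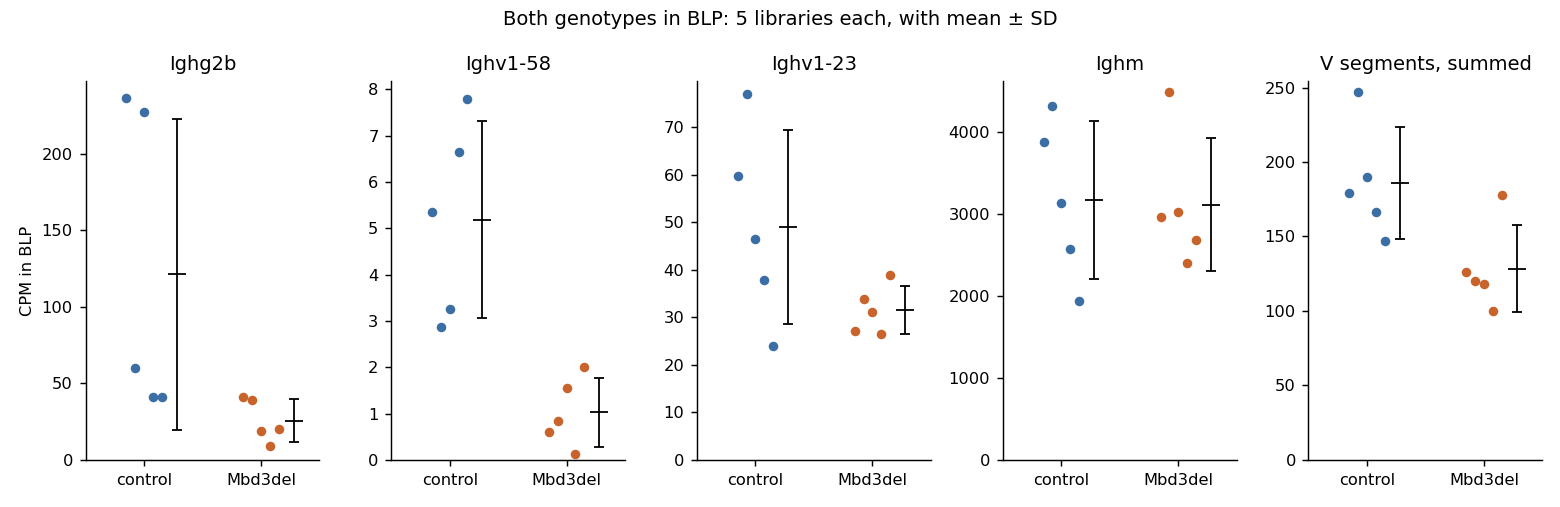
BLP levels, in CPM, of Ighg2b, Ighv1-58, Ighv1-23, Ighm and the V sum in 5 control and 5 Mbd3del libraries, with mean ± SD. The genotypes do not overlap for Ighg2b and Ighv1-58, and they overlap for the others.

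Between adjacent populations past LMPP, few members were called. From LMPP to ALP, 0 of 13 tested members passed in control mice, where edgeR called 0.938% of all genes in either direction. At an unadjusted p under 0.05 there were 2 of the 13, beside 858 of 10871 genes, and DESeq2 called 4 members. In Mbd3del mice 1 of 14, Ighm, passed by edgeR (1.11% of all genes rose). From ALP to BLP, none of 17 passed in Mbd3del mice, where edgeR called 0.636% of all genes. At an unadjusted p under 0.05 there were 3 of the 17, beside 840 of 10842 genes, and DESeq2 called 0 members. The difference of steps between genotypes was called for 0 of 9 members from HSC to LMPP, 0 of 19 from LMPP to ALP and 0 of 28 from ALP to BLP, where 0% of all genes tested were called in each by edgeR. Unadjusted p was under 0.05 for 0, 0 and 1 of these members, beside 645 of 12576, 552 of 12237 and 489 of 12123 genes tested.

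Genes that act on the locus were read from lists. Of all genes tested, 2.82% in control and 2.99% in Mbd3del mice rose from HSC to LMPP. On that step 351 of 11043 and 426 of 11365 fell. From LMPP to ALP 51 of 10871 and 123 of 11082 rose, and from ALP to BLP 26 of 10905 and 55 of 10842. List genes near 0 at the earlier stage entered a test only through the later one and had to differ. The list genes tested varied between genotypes on some steps. Of 16 genes of the recombination machinery, 4 of 13 tested rose from HSC to LMPP in each genotype and none fell: Dntt, which adds bases at the joints, Rag2, Hmgb2 and Xrcc6. From LMPP to ALP 4 rose in each (of 14 tested in control and 15 in Mbd3del mice), and among them Rag1, the catalytic subunit of the recombinase, had log2 fold changes of 5.39 (edgeR adjusted p = 0.0226) and 5.72 (adjusted p = 0.00152). Rag1 had almost no reads in LMPP, so it entered this test only through ALP and had to differ. Its calls on this step are no support beyond its levels. From ALP to BLP Rag1 alone rose, of 15 tested, by 2.503 (adjusted p = 0.0113) and 1.68 (adjusted p = 0.0380).

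Rag2 was already at 66.9 ± 21.6 and 65.4 ± 20.8 CPM in LMPP, control first, when Rag1 was at 0.963 and 1.01 CPM. Rag1 then averaged 41.5 ± 24.2 and 52.3 ± 19.6 CPM in ALP and 218 ± 93.3 and 163 ± 57.6 CPM in BLP. V and Ighm transcripts were thus present in LMPP libraries with almost no Rag1 reads.

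Of 23 regulators of the locus, Ikzf1 (Ikaros) rose from HSC to LMPP in both genotypes, Foxo1 fell in both and Stat5a fell in control mice, of 18 tested. On the LMPP to ALP step, Ebf1, a factor that specifies B cells, and Il7r, part of the ALP gate, rose in both, of 19 tested. From ALP to BLP, Ebf1 rose by 3.21 (edgeR adjusted p = 0.000971) in control and 1.75 (adjusted p = 0.0393) in Mbd3del mice, of 22 and 21 tested, and Pou2af1, a coactivator of immunoglobulin promoters, rose in control mice. None fell on these last steps. Pax5, the B cell commitment factor needed for contraction of the locus, was at 8.79 ± 8.30 and 8.23 ± 7.03 CPM in BLP.

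Of 9 partners of the heavy chain in its receptor, none of 4 tested was called from HSC to LMPP in either genotype. On the next step Blnk rose in control mice (1 of 4 tested), and Blnk, Cd79a and Vpreb2 in Mbd3del mice (3 of 7). From ALP to BLP, Blnk, Cd79a and Vpreb2 rose in both genotypes and Vpreb3 in control mice (4 of 8 and 3 of 9). Cd79a carries the receptor's signal and Vpreb2 is part of the surrogate light chain. Of 11 constant genes of other antigen receptors, 0 were tested from HSC to LMPP in control mice. In Mbd3del mice the 1 tested, Trbc2, rose (log2 fold change 4.85, edgeR adjusted p = 0.00967). All 11 summed to at most 1.68 CPM in Mbd3del HSC, so Trbc2 entered the test only through LMPP and had to differ. The call does not set the genotypes apart, and no other of the 11 was called at any step. No gene of these lists was called between genotypes or in a difference of steps.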

How the data were processed

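Gene expression was measured by Smart-seq2 on sorted cell pools, 40 libraries from 10 mice. The deposited values are raw read counts, for genes and for repeat regions, in 1 table; STAR 2.5.2b, HTSeq 0.6.1p1 and GRCm38 are named per the submitters' processing notes, while no source used here gives the strand or multi-mapping settings. The 49585 gene rows were used; the 79325 repeat regions (0.205% to 2.28% of counts) were left out of library sizes and tests. Identifiers were matched to GENCODE M21 (49326 matched; 138 members with the same identifier version and 4 with another). CPM was computed from the gene totals of 2974305 to 9082610 counts. The floor used is 3 reads over the pooled libraries of a group, or over all libraries for Ighg3. Intervals cover counting error only.

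The main test was edgeR 4.0.16 (R 4.3.3, limma 3.58.1) glmQLFit (robust) with TMM scaling and filterByExpr (minimum count 10, total 15), Benjamini-Hochberg over all genes, threshold 0.05, on the libraries compared only. Alternatives were DESeq2 1.42.0, no scaling, no filter, all 40 libraries in 1 fit, labelled sex as a covariate, the mouse as a block, leaving out mice, and, chosen after seeing the data, the newer edgeR estimator and V shares without Ighv1-23. Scripts were tested on simulated data. V segments were ordered by distance from Ighm and divided into 3 bins of 38, 38 and 37. The named members are all constant genes, J and D segments with reads, the 20 V segments with the highest mean over group means, and any other member called; further members are named as picked after their values were seen. Members and lists were chosen with earlier results of these data known.

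By the labels, each mouse gave all 4 populations, so the steps are paired. Over 30 same-mouse pairs, the correlation of deviations from group means across 11180 genes was -0.194 to 0.203 (median 0.0411; 7 over 0.1). In 13 of the 30, the same mouse was the best match among the 5 mice of its genotype. Nothing in the labels says that libraries of a group differ other than by mouse.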

Additional observations from a re-analysis of the deposited data

Results flagged for a closer look

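Values far from the other 4 libraries of their group were looked for in 143 group values with a mean of at least 1 CPM, over 35 members and sums. The gap to the nearest library, as a share of the range, was above Dixon's 95% critical value of 0.71 in 10 of them (6.99%). Chance gives about 1 in 20.

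Of the 10, 5 concerned constant genes past Ighd. Ighg2b was at 10.02 CPM in the Mbd3del ALP library of mouse10361 and at 0 in the other 4. Ighe was at 15.8 CPM in the control ALP library of mouse10372, against 0 to 3.36, and at 5.36 CPM in the Mbd3del BLP library of mouse10361, against 0. Igha was at 4.90 CPM in the control BLP library of mouse10358, against 0 to 0.153. Ighg2c was at 5.24 CPM in the control BLP library of mouse10380, against 0 to 0.148.

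The other 5 concerned V segments. Ighv1-82 was low, at 1.43 CPM, in the control ALP library of mouse10380, against 12.05 to 15.7. Ighv1-76 was at 14.6 CPM in the control LMPP library of mouse10357, against 2.62 to 4.73, and Ighv1-75 was at 14.5 CPM in the ALP library of the same mouse, against 3.54 to 6.49. Ighv10-3 was at 16.2 CPM in the Mbd3del BLP library of mouse10384, against 2.32 to 3.79. Ighv1-43 was at 4.74 CPM in the control BLP library of mouse10372, against 0 to 1.07. What sets these libraries apart was not tested.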

How the results depend on the processing

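Of 787 alternative values for 83 results, 708 counted as the same, 23 lost a call, 13 gained one, 43 moved and 0 reversed. For fold changes, the same means an unchanged direction and side of the threshold. For counts of members it means within 1.5 times, and for summed levels and V shares within 1 SD of the libraries. Leaving out 1 of 5 libraries cannot move a mean by 1 SD, so those summed levels had to stay the same. Members called from HSC to LMPP, 7 in control and 8 in Mbd3del mice, were 15 and 13 with all 40 libraries in 1 fit, 4 in control mice without mouse10372 and mouse10381, and 6 and 7 with the mouse as a block. From LMPP to ALP, the 0 in control mice became 4 in the fit of all libraries and 4 with DESeq2, and 2 with the newer estimator. The 1 in Mbd3del mice became 0 without scaling, in the fit of all libraries and with the mouse as a block, 2 with the newer estimator and 4 with DESeq2. From ALP to BLP, the 1 in control mice became 0 without a filter, in the fit of all libraries, without mouse10372 and mouse10381 and with the mouse as a block, and 5 with DESeq2, and the 0 in Mbd3del mice became 1 with the newer estimator. DESeq2 called 1 member between genotypes in BLP. The causes of these changes were not tested. For DESeq2 the share of all genes called is not given here, so its counts of members have no background to be read against. The block changed no other count of calls by over 1.5 times.

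On leaving out 1 mouse, calls ranged 7 to 8 and 8 to 9 from HSC to LMPP (control, Mbd3del), 0 to 1 and 0 to 1 from LMPP to ALP, and 0 to 0 and 0 to 1 from ALP to BLP. With at least 3 reads required, 1 and 1 members were detected in HSC. Distal V shares without the most counted V of each group were 71.4% and 74.7% in LMPP, 94.3% and 95.5% in ALP, and 72.7% and 78.2% in BLP; without Ighv1-23 those of LMPP were 95.7% and 97.0%. Thinning to the smallest library lowered the V segments with a read in at least 3 of 5 libraries from 20 to 16 in control ALP and left D at 0 in each group.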

Other observations

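V pseudogenes of the locus, which carry V sequence that cannot make a working chain, were transcribed on the same schedule. Of 70 annotated, 36 had reads. Their sum was 0 in all 10 HSC libraries, 7.72 ± 2.20 and 10.01 ± 2.43 CPM in LMPP (SD, n = 5, control first) and 25.0 ± 14.05 and 22.9 ± 12.2 CPM in ALP. In BLP it was 27.1, 27.6, 28.2, 29.2 and 33.8 CPM in control mice and 12.7, 15.9, 19.5, 20.7 and 23.7 CPM in Mbd3del mice, so the genotypes did not overlap there. No test was made on this sum.

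Adam6b, a sperm gene that lies between the V and D segments, had 111 reads in BLP of 3 control mice (2.85 ± 3.59 CPM) and 0 in Mbd3del BLP, and 7 and 16 reads in ALP. Its neighbour Adam6a had none in any library.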
